A study of Mus musculus with 18 samples.

Results

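The mouse genes for the receptors that bind the Fc part of IgG were measured in microglia and macrophages of the injured spinal cord. They are 6 of the 53465 genes in the deposited count tables and were taken by their symbols: the inhibitory receptor gene Fcgr2b, the activating receptor genes Fcgr1, Fcgr3 and Fcgr4, the signalling chain gene Fcer1g, and Fcgrt, which encodes the heavy chain of the neonatal Fc receptor. All 6 were found, and all 6 passed the filter on low counts in each of the 11 comparisons. Adult female C57BL/6J mice, 8 to 10 weeks old, received a contusion of the thoracic spinal cord, so every animal was injured. At 48 h after the injury they were injected once, at the epicentre, with PBS (the vehicle), with 100 ng of recombinant IL-13 (rIL-13) or with 100 ng of recombinant IL-4 (rIL-4). At 24 h after the injection, microglia (CD45 low) and macrophages (CD45 high) were sorted from each cord by CD45, CD11b and F4/80, and RNA of each sort was sequenced as 1 library. There were 3 mice per treatment (PBS mice 1, 2 and 3; rIL-13 mice 5, 6 and 7; rIL-4 mice 8, 9 and 10), and each gave both cell types, so the 9 mice gave 18 libraries in 6 groups of 3. Uninjured mice were not part of these libraries, and microglia are told from macrophages here only by the level of CD45.

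Fc gamma receptors let phagocytes sense IgG bound to cells, debris or complexes. Fcgr1, Fcgr3 and Fcgr4 have no activating motif of their own and signal through the paired chain encoded by Fcer1g, whose immunoreceptor tyrosine-based activation motif (ITAM) is phosphorylated by Src-family kinases and then binds the kinase Syk. Fcgr2b carries an immunoreceptor tyrosine-based inhibitory motif (ITIM), which recruits the lipid phosphatase encoded by Inpp5d, so that the balance of activating and inhibitory receptors sets the threshold of a phagocyte for IgG. Fcgrt works inside the cell, where its product binds IgG and albumin in acidic endosomes and returns them to the surface. In mice the proteins of Fcgr3 and Fcgr2b are CD16 and CD32, which a common antibody detects together, and the study used that antibody signal as a pro-inflammatory marker in the same cells.

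The sequences that set the signalling roles of the inhibitory receptor and of the adaptor are shown first, as coding DNA of the annotated transcripts on GRCm38, with the tyrosine codons in capitals. The ITIM of Fcgr2b lies in an exon at chr1:170961071-170961088, minus strand, and the ITAM of Fcer1g is spread over exons within chr1:171229889-171230072, minus strand.
Fcgr2b ITIM: atcaccTACtcacttctc
Fcer1g ITAM: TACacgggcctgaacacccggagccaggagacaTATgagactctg
The ITIM has 1 tyrosine codon within 18 bases, and the ITAM has a tyrosine codon at its start and another near its end within 45 bases of coding sequence.

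The libraries held 35961305 to 45849829 counts each, and no pair of libraries was identical. Levels are given as CPM, in which each count is divided by the total of its library, scaled over the 18 libraries by the trimmed mean of M-values, with factors that differed between the sorts. The summed CPM of 10 microglia markers was 6553 to 11896 in PBS microglia and 2943 to 4340 in PBS macrophages. It was 2713 to 7628 in microglia after either cytokine and 498 to 2438 in macrophages after either cytokine. The 8 markers of monocytes and infiltrating macrophages were higher in sum after the cytokines, as Fcgr2b and Fcgrt were: they summed to 719.9 to 999 CPM after PBS, 5408 to 7788 after rIL-13 and 12401 to 22265 after rIL-4 in microglia, and to 3861 to 5946, 60655 to 83304 and 90747 to 116360 CPM in macrophages. Most of the sum after either cytokine was Chil3, which IL-4 and IL-13 are known to induce (means of 127, 5388 and 17341 CPM in microglia after PBS, rIL-13 and rIL-4). The monocyte marker Ly6c2 averaged 6.27, 4.84 and 9.64 CPM in the same microglia groups and 152, 112 and 111 CPM in macrophages, and Ccr2 averaged 16.5, 31.4 and 41.1 CPM in microglia and 208, 339 and 283 CPM in macrophages. The summed CPM of 6 fibroblast and pericyte markers in microglia was 1792 to 2634 after PBS, 911 to 6219 after rIL-13 and 165 to 1222 after rIL-4. In the macrophage libraries it was 0.205 to 6.59. That of 5 endothelial markers was 665 to 2516 in the microglia libraries against 22.4 to 435 in the macrophage libraries. Neutrophil markers (8 genes, which include abundant S100a8 and S100a9) summed to 17.1 to 182 in microglia and 170 to 2954 in macrophages. The natural killer cell markers summed to at most 4.25 CPM in any library, with Ncr1 and Eomes at 0 in all. The parts of these marker differences in the results were not tested except where a value is given. In sorted bulk samples, a higher share of expressing cells and more RNA per cell cannot be told apart.

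Under PBS, Fcer1g and Fcgr3 had the highest levels of the 6 genes in both cell types. Levels per kilobase of merged exons (CPM per kb) allow different genes to be set side by side. In PBS microglia Fcer1g stood at 700 ± 88.7 CPM per kb (SD, n = 3) and Fcgr3 at 385 ± 62.9, while Fcgr4 (70.6 ± 1.19), Fcgr1 (61.3 ± 5.24), Fcgrt (53.9 ± 2.92) and Fcgr2b (46.5 ± 2.89) lay far below them. The ranges of Fcgr1 and Fcgrt overlapped, and those of the other neighbours in this order did not. In PBS macrophages the order was Fcer1g (1321 ± 224 CPM per kb), Fcgr3 (393 ± 36.3), Fcgr1 (148 ± 41.1), Fcgr4 (140 ± 42.0), Fcgr2b (95.5 ± 7.28) and Fcgrt (11.4 ± 1.79), where the range of Fcgr4 overlapped with those of Fcgr1 and Fcgr2b, and no other neighbours overlapped. Fcgr2b was thus last in PBS microglia and next to last in PBS macrophages, and on this length it ranked 3 of 6 in each of the 4 cytokine groups, with 160 (rIL-13) and 176 (rIL-4) CPM per kb in microglia and 291 (rIL-13) and 297 (rIL-4) in macrophages. This change of rank depended on the gene length: per kilobase of the longest transcript, Fcgr2b stood at 75.98 in PBS microglia and 156 in PBS macrophages and ranked 3 of 6 in all 6 groups.

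**Figure D1:**
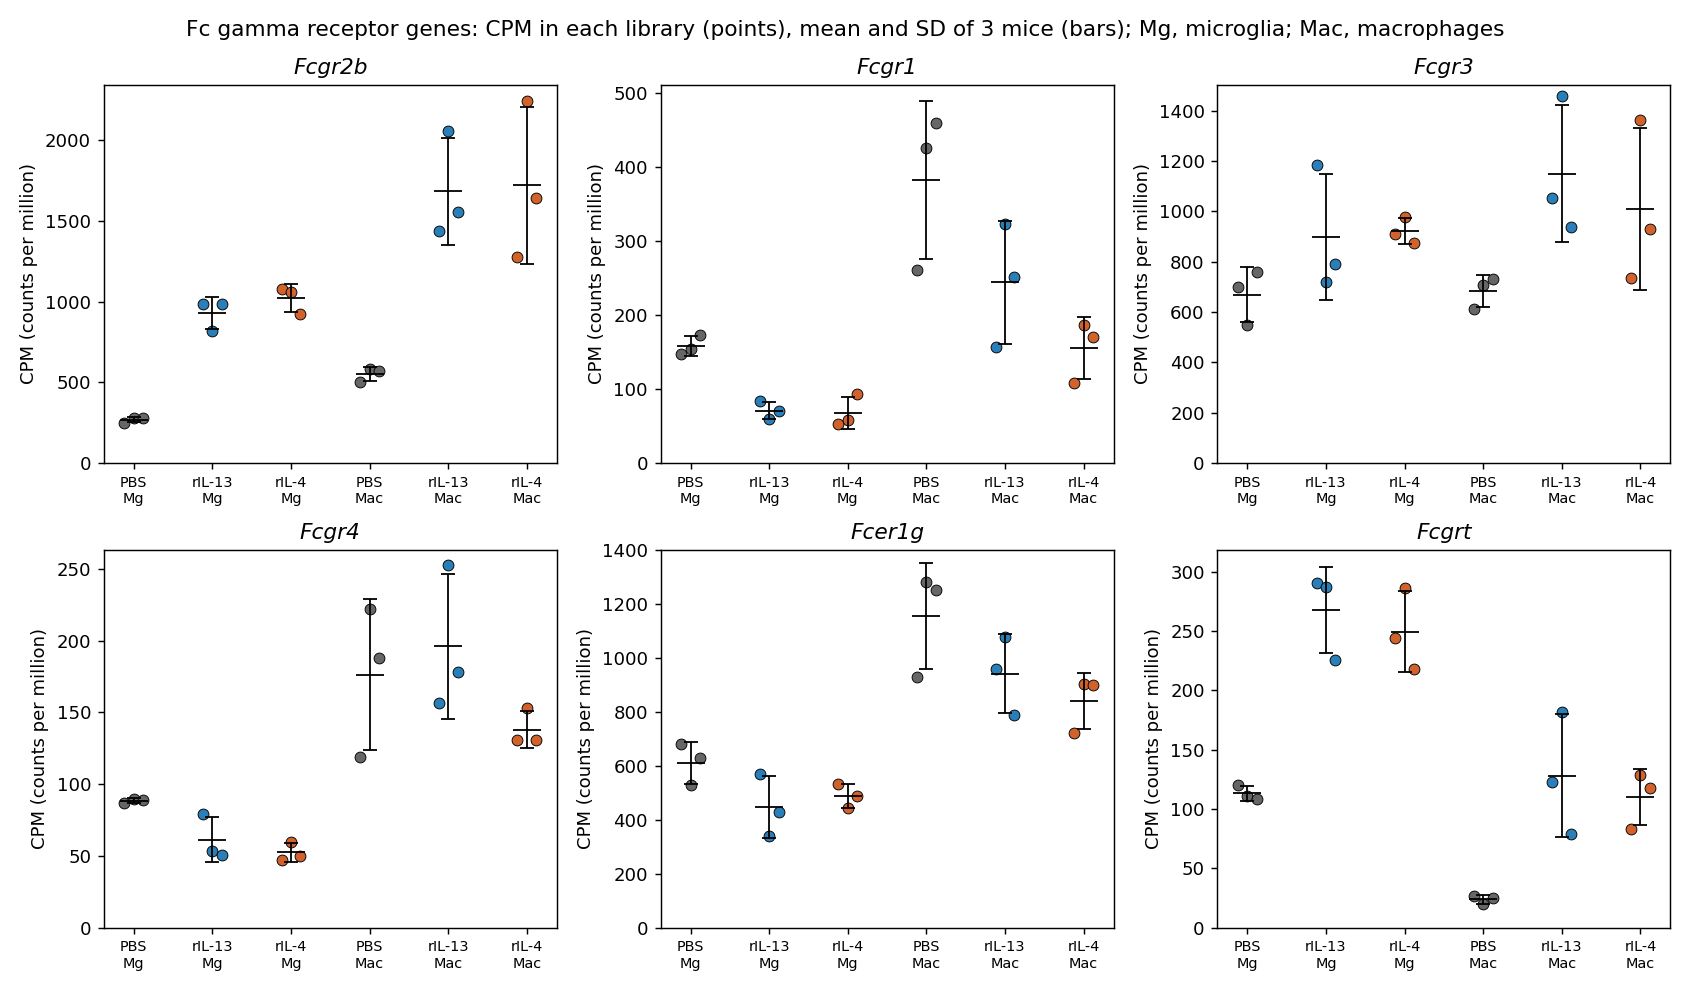
CPM of each of the 6 genes in the 18 libraries, 1 panel per gene, with each axis starting at 0. Points are libraries, and bars are the mean and SD of 3 mice. Fcgr2b and Fcgrt stand above PBS in all 3 libraries of every cytokine group, while Fcgr1 stands below PBS in 3 of the 4 cytokine groups without overlap. The share of all genes that separate in this way was not computed.

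The comparisons of each cytokine with PBS asked which receptors respond to rIL-4 or rIL-13 in the injured cord. In microglia, 3 of the 6 genes were differentially expressed (DE) after rIL-4, where 2.22% of the 15566 genes tested were, and 2 of 6 after rIL-13, where 0.366% were. In macrophages, 3 of 6 were DE after rIL-4, where 14% of the 13606 genes tested were, and 2 of 6 after rIL-13, where 4.19% were. Fcgr2b and Fcgrt rose in all 4 comparisons, and Fcgr1 fell with rIL-4 in both cell types. Both comparisons within a cell type use the same PBS libraries and are not independent. Below, all libraries of a group are sometimes said to lie above or below those of another. The share of all genes that separate in this way was not computed.

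Fcgr2b, the only inhibitory receptor of the family, rose in every comparison with PBS. In microglia it was at 250, 282 and 276 CPM after PBS, at 984, 817 and 986 CPM after rIL-13, and at 1078, 1061 and 920 CPM after rIL-4. Every cytokine library lay above every PBS library. The log2 fold change was 1.95 for rIL-4 (SE 0.14, adjusted p = 0.000346, rank 7 by p among all genes tested) and 1.79 for rIL-13 (SE 0.14, adjusted p = 0.00104, rank 4), or 3.85-fold and 3.47-fold. In macrophages Fcgr2b was at 505, 584 and 569 CPM after PBS, at 1439, 2058 and 1553 CPM after rIL-13, and at 1279, 2242 and 1641 CPM after rIL-4. The log2 fold change was 1.64 for rIL-4 (SE 0.21, adjusted p = 0.00101) and 1.61 for rIL-13 (SE 0.21, adjusted p = 0.00318), or 3.11-fold and 3.06-fold. The call held without any 1 library: the log2 fold changes then ran from 1.74 to 2.02 in microglia and from 1.39 to 1.81 in macrophages. The B cell markers Ms4a1 and Pax5, of a lineage in which Fcgr2b is the main Fc receptor, were at 0 in all microglia libraries, while the 6 B cell markers together, mostly Ighm and Cd79b, summed to 36.4 to 124 CPM in microglia after PBS, 19.0 to 102 after rIL-13 and 37.9 to 89.7 after rIL-4. In macrophages the sum was 12.2 to 24.6, 10.5 to 18.8 and 4.75 to 7.28 CPM in the same order. The gates required CD11b and F4/80, which most B cells lack, and the part of B cell RNA in the Fcgr2b values was not tested.

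Fcgr2b and Fcgr3 share sequence in their extracellular part, so reads from it cannot be given to 1 of them with certainty. Their coding sequences were identical at 678 of 782 aligned bases (86.7%), against 64.1% to 68.6% for the other pairs among the 4 receptor genes. The longest identical run is 129 coding bases, shown here because it is longer than a 76-base read. It crosses a splice junction in each gene, within chr1:170966674-170968081 in Fcgr2b and chr1:171054167-171057792 in Fcgr3 (GRCm38, both on the minus strand).
Fcgr2b and Fcgr3 shared run: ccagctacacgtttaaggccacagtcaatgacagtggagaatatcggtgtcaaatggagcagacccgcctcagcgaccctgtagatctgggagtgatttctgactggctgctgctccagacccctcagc
Of the 76-base windows of the longest coding transcript, 92 of 1272 in Fcgr3 (7.23%) and 92 of 3469 in Fcgr2b (2.65%) were found in the other gene. Fcgr1, Fcgr4, Fcer1g and Fcgrt had no such window in any other annotated gene, while 318 of the Fcgr2b windows were found in other genes in all. With the counts of Fcgr2b and Fcgr3 added together as 1 gene, the log2 fold change was 1.07 for rIL-4 in microglia (adjusted p = 0.0132), 0.97 for rIL-13 in microglia (adjusted p = 0.0503), 1.14 for rIL-4 in macrophages (adjusted p = 0.00782) and 1.20 for rIL-13 in macrophages (adjusted p = 0.0153). The rIL-13 call in microglia was therefore lost for the sum, while the other calls stayed.

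Fcgr3, the low-affinity activating receptor, was not DE in any comparison with PBS. In microglia it was at 700, 547 and 759 CPM after PBS, at 1182, 718 and 790 after rIL-13 and at 911, 976 and 874 after rIL-4. In macrophages it was at 612, 706 and 731 CPM after PBS, at 1052, 1456 and 939 after rIL-13 and at 733, 1361 and 931 after rIL-4. All 3 libraries of each cytokine group except rIL-13 microglia lay above those of PBS. In macrophages the lowest rIL-4 library stood at 733.4 CPM and the highest PBS library at 731.1 CPM. Its log2 fold changes were 0.48 and 0.43 in microglia (rIL-4 and rIL-13, adjusted p = 0.287 and 0.708) and 0.56 and 0.76 in macrophages (adjusted p = 0.142 and 0.111), with SE of 0.21 to 0.23. With DESeq2 (adjusted p = 0.0421) or with no filter on low counts (adjusted p = 0.045), its difference after rIL-13 in macrophages passed the threshold.

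Fcgr1, the high-affinity receptor and a classical target of interferon gamma, fell with rIL-4. In microglia it was at 148, 155 and 174 CPM after PBS, at 83.5, 59.8 and 69.9 after rIL-13 and at 52.9, 58.3 and 93.2 after rIL-4, so that both cytokine groups lay wholly below PBS. The log2 fold change was -1.20 for rIL-4 (SE 0.23, adjusted p = 0.0303, 2.3-fold lower). For rIL-13 it was -1.15 (SE 0.23), which did not pass the test (adjusted p = 0.106). In macrophages Fcgr1 was at 262, 427 and 460 CPM after PBS, at 157, 323 and 252 after rIL-13 and at 108, 187 and 171 after rIL-4. The rIL-4 libraries lay below those of PBS (log2 fold change -1.30, SE 0.30, adjusted p = 0.0176), whereas the rIL-13 libraries overlapped with them (-0.64, SE 0.30, adjusted p = 0.295). Both rIL-4 calls were lost in most fits with 1 library fewer. In microglia this was without PBS mouse 1, 2 or 3 or rIL-4 mouse 8 or 9 (adjusted p of 0.0795 to 0.132). In macrophages it was without PBS mouse 2 or 3 or rIL-4 mouse 8 or 10 (adjusted p of 0.0533 to 0.0749). Over these fits the log2 fold change ran from -1.485 to -1.051 in microglia and from -1.518 to -1.098 in macrophages. Over all genes in microglia, 75 of 16336 were called without PBS mouse 3, against 345 of 15566. The rIL-13 difference in microglia passed the test with DESeq2 (adjusted p = 0.000247) and with a filter that kept genes with 10 or more counts in all libraries (adjusted p = 0.0417).

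The upstream sequences of Fcgr1 and Fcgr2b are given because Fcgr2b rose and Fcgr1 fell after rIL-4. Each is the 250 bases before the RefSeq transcription start on GRCm38.p6, read 5' to 3' on the gene's own minus strand: chr3:96293970-96294219 for Fcgr1 and chr1:170976072-170976321 for Fcgr2b. Capitals mark matches, on either strand, to the interferon gamma-activated type of STAT motif (TTCNNNGAA), to the type preferred by STAT6, the factor downstream of IL-4 and IL-13 (TTC and GAA with 4 bases between them), and to the core of the myeloid factor PU.1 (GAGGAA).
Fcgr1 upstream: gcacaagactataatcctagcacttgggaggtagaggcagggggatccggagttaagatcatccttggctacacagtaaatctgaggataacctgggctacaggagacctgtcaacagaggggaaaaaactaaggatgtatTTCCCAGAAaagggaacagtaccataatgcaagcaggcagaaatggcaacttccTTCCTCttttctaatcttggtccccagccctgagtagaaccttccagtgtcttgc
Fcgr2b upstream: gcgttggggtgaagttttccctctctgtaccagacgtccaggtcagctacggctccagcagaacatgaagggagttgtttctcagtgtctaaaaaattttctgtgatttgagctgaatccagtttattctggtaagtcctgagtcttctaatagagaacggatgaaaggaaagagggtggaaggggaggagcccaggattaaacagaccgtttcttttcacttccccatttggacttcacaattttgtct
All 6 genes matched the RefSeq table, and the windows searched were 300 bases, which add the first 50 transcribed bases. Fcgr1 was the only one of the 6 with TTCNNNGAA, starting at position -109 and matching on both strands since the motif is its own reverse complement, and 8.47% of the 27025 mouse windows held that motif. None of the 6 held the STAT6 type, which 6.99% of windows held. The PU.1 core lay on the opposite strand in Fcgr1 (position -55), Fcgr4 (-22) and Fcgr3 (-6), and 28.3% of all windows held it. The motifs were searched as letters only and do not overlap one another in these windows.

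Fcgr4, the activating receptor for IgG2 subclasses, was not DE after either cytokine. In microglia it was at 87.0, 90.0 and 88.9 CPM after PBS, at 79.5, 53.8 and 50.8 after rIL-13 and at 47.3, 60.0 and 50.3 after rIL-4, so that all libraries of both cytokine groups lay below those of PBS. The log2 fold change was -0.73 for rIL-4 (SE 0.20, adjusted p = 0.108) and -0.52 for rIL-13 (SE 0.20, adjusted p = 0.567). DESeq2 (adjusted p = 0.00851) and a fit on the 6 libraries compared (adjusted p = 0.0488) called the rIL-4 difference. In macrophages Fcgr4 was at 119, 222 and 188 CPM after PBS, at 157, 253 and 178 after rIL-13 and at 131, 153 and 131 after rIL-4. The groups overlapped with PBS, and the log2 fold changes were 0.16 for rIL-13 (adjusted p = 0.79) and -0.35 for rIL-4 (adjusted p = 0.372). The value for rIL-13 was below 0 without PBS mouse 1 (-0.07) or rIL-13 mouse 6 (-0.05).

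Fcer1g, the shared signalling chain, was not DE after either cytokine. It was at 680, 528 and 629 CPM in PBS microglia, at 570, 341 and 430 after rIL-13 and at 534, 445 and 490 after rIL-4. In macrophages it was at 929, 1283 and 1251 CPM after PBS, at 959, 1079 and 788 after rIL-13 and at 722, 904 and 899 after rIL-4. Its groups overlapped with PBS in 3 of the 4 comparisons, and in macrophages after rIL-4 all 3 libraries lay below PBS. The 4 log2 fold changes were between -0.46 and -0.29, with SE of 0.17 to 0.20 and adjusted p of 0.112 (rIL-4, macrophages) to 0.642 (rIL-13, microglia).

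Fcgrt, the neonatal Fc receptor gene, rose with both cytokines in both cell types. In microglia it was at 120, 111 and 108 CPM after PBS, at 291, 287 and 226 after rIL-13 and at 244, 286 and 218 after rIL-4. The log2 fold change was 1.17 for rIL-4 (SE 0.16, adjusted p = 0.00795) and 1.25 for rIL-13 (SE 0.16, adjusted p = 0.0123), or 2.24-fold and 2.38-fold. In macrophages Fcgrt was at 26.9, 19.8 and 25.4 CPM after PBS, at 123, 182 and 79.0 after rIL-13 and at 83.4, 129 and 118 after rIL-4. Every cytokine library lay above every PBS library of its cell type. The log2 fold change in macrophages was 2.19 for rIL-4 (SE 0.28, adjusted p = 0.000941) and 2.41 for rIL-13 (SE 0.29, adjusted p = 0.00174), or 4.56-fold and 5.33-fold. In microglia the rIL-4 call was lost without PBS mouse 3 (adjusted p = 0.0597) and the rIL-13 call without PBS mouse 1, 2 or 3 (adjusted p of 0.068 to 0.0958), while both macrophage calls held without any 1 library. The microglia log2 fold changes without 1 library ran from 1.052 to 1.257 for rIL-4 and from 1.182 to 1.355 for rIL-13.

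Endothelial cells also express Fcgrt, and the sum of 5 endothelial markers moved with it. The summed CPM of the 5 markers was 665 to 1494 in PBS microglia, 1513 to 2516 after rIL-13 and 1812 to 2310 after rIL-4. In macrophages it was 22.4 to 28.8 after PBS, 143 to 218 after rIL-13 and 229 to 435 after rIL-4. The rise of the sum in macrophages lay mostly in Pecam1 (means of 8.49, 137 and 222 CPM after PBS, rIL-13 and rIL-4) and Flt1 (6.38, 29.6 and 64.7 CPM). Vwf averaged 7.08, 11.1 and 19.7 CPM in the same groups, and Cdh5 averaged 0.502, 0.718 and 0.552 CPM. Cldn5, a tight junction gene of brain endothelium, averaged 2.42, 1.97 and 0.874 CPM there. In microglia Cldn5 averaged 512, 850 and 939 CPM, and Pecam1 averaged 248, 459 and 499 CPM. Flt1 averaged 176, 248 and 325 CPM in microglia, Vwf 123, 344 and 214 CPM, and Cdh5 32.7, 31.4 and 25.8 CPM. The part of endothelial RNA in the Fcgrt values was not tested.

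**Figure D2:**
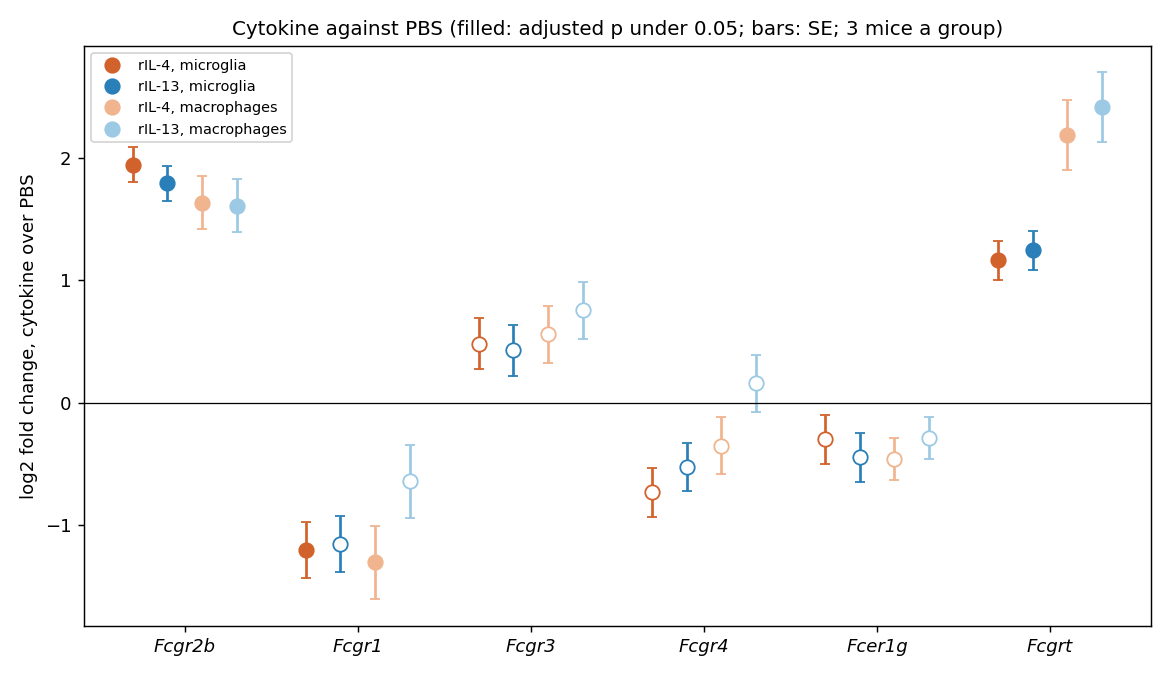
Log2 fold change of each gene, cytokine over PBS, in microglia (dark) and macrophages (light), 3 mice per group. Bars are SE and filled points passed the test; Fcgr2b (1.61 to 1.95) and Fcgrt (1.17 to 2.41) are filled throughout, and Fcgr1 is filled for rIL-4 only.

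The comparison of rIL-4 with rIL-13 asked whether the receptors separate the cytokines. No member was DE between them in either cell type, where 0.0385% of genes in microglia and 0.25% in macrophages were. In microglia the 6 log2 fold changes (rIL-4 over rIL-13) lay between -0.21 and 0.15, with SE of 0.14 to 0.23 and adjusted p of 0.808 to 0.988. In macrophages they lay between -0.66 and 0.02. The values farthest from 0 were those of Fcgr1 (-0.66, SE 0.30, unadjusted p = 0.0499, adjusted p = 0.449) and Fcgr4 (-0.51, SE 0.23, unadjusted p = 0.053, adjusted p = 0.456). All 3 rIL-4 libraries were below all 3 rIL-13 libraries for Fcgr4 in macrophages, and those of Fcgr1 overlapped. Of the 12 tests, 1 had an unadjusted p under 0.05, and DESeq2 also called no member. Among all genes, 1773 of 15566 had such a p in microglia and 1513 of 13606 in macrophages.

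The ratio of the activating receptors to Fcgr2b describes the balance of the surface receptors at the RNA level. The summed CPM per kb of Fcgr1, Fcgr3 and Fcgr4 over that of Fcgr2b was 11.2 ± 1.72 (SD, n = 3) in PBS microglia, 3.68 ± 0.787 after rIL-13 and 3.41 ± 0.262 after rIL-4. In macrophages it was 7.10 ± 0.720, 3.12 ± 0.191 and 2.53 ± 0.0412 in the same order. The lowest PBS library stood at 9.18 in microglia and 6.28 in macrophages, above the highest cytokine library of either cell type (4.57). Fcgr3 made up most of the numerator: Fcgr3 over Fcgr2b fell from 8.33 to 3.20 and 3.02 in the microglia means, and Fcgr1 over Fcgr2b from 1.32 to 0.171 and 0.153. The ratios follow from the gene values above and carry no test of their own. Their size depends on the gene length used, because Fcgr2b has 5790 bases of merged exons but a longest transcript of 3544 bases. With the longest transcript as length the microglia means were 8.31, 2.82 and 2.62, and the macrophage means 5.08, 2.31 and 1.89.

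**Figure D3:**
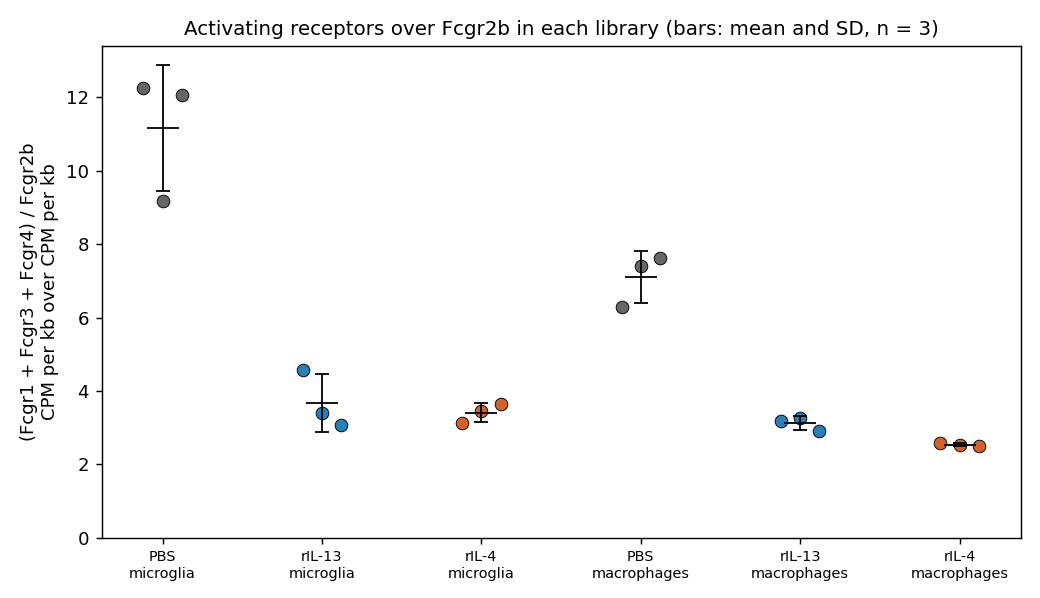
Summed CPM per kb of Fcgr1, Fcgr3 and Fcgr4 divided by that of Fcgr2b in each library, on an axis from 0. Bars are the mean and SD of 3 mice; PBS microglia (11.2) and PBS macrophages (7.10) stand above all cytokine groups (2.53 to 3.68).

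Microglia and macrophages of the same cords were compared within each treatment. In each, 5 of the 6 genes were DE: Fcgr1, Fcgr4, Fcgr2b and Fcer1g were lower in microglia, and Fcgrt was higher. Of all genes tested, 40.9% were DE after PBS, 26.7% after rIL-13 and 23.4% after rIL-4. Under PBS the log2 fold change (microglia over macrophages) was -1.30 for Fcgr1 (SE 0.20), -1.02 for Fcgr4 (SE 0.20), -1.07 for Fcgr2b (SE 0.11), -0.95 for Fcer1g (SE 0.15) and 2.20 for Fcgrt (SE 0.16), with adjusted p of 2.03e-05 to 0.00343. Fcgr3 was not DE (-0.06, SE 0.14, adjusted p = 0.77).

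After the cytokines the log2 fold changes between the cell types had the same signs. For Fcgr1 they were -1.76 after rIL-13 and -1.16 after rIL-4, and for Fcgr4 they were -1.66 and -1.37. Fcgr2b was at -0.84 after rIL-13 (adjusted p = 0.0167) and at -0.73 after rIL-4 (adjusted p = 0.0494). Fcer1g was at -1.06 and -0.76, and Fcgrt at 1.09 (adjusted p = 0.0298) and 1.21 (adjusted p = 0.0047). Fcgr3 remained without a call (-0.34 and -0.11, adjusted p = 0.388 and 0.809).

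Within single mice, Fcgr1, Fcgr4, Fcgr2b and Fcer1g were lower in the microglia than in the macrophages of the same cord in 9 of 9 mice, and Fcgrt was higher in 9 of 9. Fcgr3 was lower in 5 of 9. The share of all genes that keep 1 direction in 9 of 9 mice was not computed. Of all genes, 40.9%, 26.7% and 23.4% were DE between the cell types after PBS, rIL-13 and rIL-4. The log2 ratio of Fcgrt was 2.16, 2.49 and 2.09 in PBS mice 1, 2 and 3, and ran from 0.66 (mouse 6) to 1.55 (mouse 8) in the cytokine mice, so that the PBS mice lay above all others. The calls after PBS held without any 1 mouse. After rIL-13, 3 members were called without mouse 5 and 0 without mouse 7, where the adjusted p were 0.0608 to 0.118 and all genes called dropped from 3710 to 1197. Without mouse 5, 2349 of 14322 genes were called. After rIL-4, 4 members were called without mouse 8, 2 without mouse 9 and 3 without mouse 10. Over all genes, 2548 of 13893 were called without mouse 9 and 1798 of 13950 without mouse 10, against 3174 of 13576 with all mice. The rIL-4 difference of Fcgr2b also missed the threshold with DESeq2's size factors (adjusted p = 0.0588) and with the stricter filter on low counts (adjusted p = 0.0683). For the sum of Fcgr2b and Fcgr3 the log2 fold change was -0.43 after PBS (adjusted p = 0.0211), -0.61 after rIL-13 (adjusted p = 0.0754) and -0.47 after rIL-4 (adjusted p = 0.196).

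**Figure D4:**
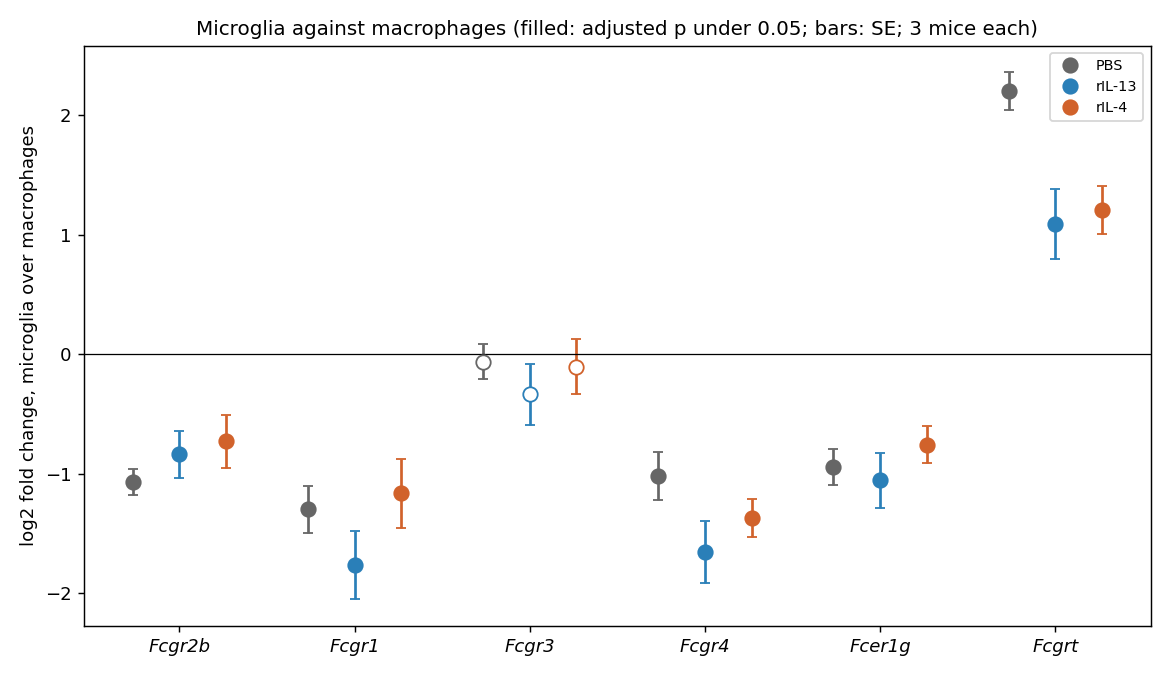
Log2 fold change of each gene, microglia over macrophages, after PBS, rIL-13 and rIL-4, with 3 mice per treatment and SE as bars. Filled points passed the test; Fcgr1, Fcgr4, Fcgr2b and Fcer1g lie between -1.76 and -0.73, Fcgr3 lies at -0.34 to -0.06 with open points, and Fcgrt lies between 1.09 and 2.20.

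Markers of other cells differed between the sorts in the same direction as some members. The gates required CD45, which endothelial cells lack, and F4/80, whose absence the study used to define granulocytes. Neutrophils carry Fcgr3, Fcgr4 and Fcer1g, and the 8 neutrophil markers summed to 741 to 1399 CPM in PBS macrophages against 56.9 to 84.7 in PBS microglia. After rIL-13 they summed to 414 to 2954 in macrophages and 19.0 to 182 in microglia, and after rIL-4 to 170 to 749 and 17.1 to 75.7. Endothelial markers stood far higher in microglia libraries, as Fcgrt did. The parts of neutrophil and endothelial RNA in these differences were not tested.

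Whether a response differed between the cell types was tested by the interaction of cell type and treatment in all 18 libraries. No member passed, where 0.992% of 16535 genes did for rIL-4 and 0.0242% did for rIL-13. The value farthest from 0 was that of Fcgrt, whose log2 fold change over PBS was smaller in microglia than in macrophages by -1.05 for rIL-4 (SE 0.34, unadjusted p = 0.00714, adjusted p = 0.184) and by -1.17 for rIL-13 (SE 0.34, unadjusted p = 0.00349, adjusted p = 0.462). Fcgr4 had -0.68 for rIL-13 (SE 0.32, unadjusted p = 0.0486, adjusted p = 0.845). Fcgr2b had 0.28 and 0.18 (SE 0.26 each, adjusted p = 0.78 and 1). Of the 12 interaction tests, 3 had an unadjusted p under 0.05, and DESeq2 also called no member. Among all 16535 genes, 2050 had such a p for rIL-4 and 964 for rIL-13.

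Genes acting downstream of the receptors were followed as a list of 32 kinases, adaptors and phosphatases, all of which were tested. In microglia 1 of 32 was higher after rIL-4, the docking adaptor gene Dok2 (log2 fold change 1.98, adjusted p = 0.0108), and 0 of 32 passed after rIL-13 (2.22% and 0.366% of all genes were called), with list medians of -0.07 and -0.20 beside medians of -0.06 and -0.0008 over all genes. In macrophages rIL-4 gave 2 higher and 7 lower (median -0.29, against 0.02 over all genes), and rIL-13 gave 2 higher and 3 lower (median -0.20, against 0.005). Of all genes, 14% and 4.19% were called in these comparisons. After rIL-4 the kinase gene Prkcd rose (1.19, adjusted p = 0.000614), and the exchange factor gene Vav1 (-0.83, adjusted p = 0.00161) and the phosphatase gene Inppl1 (-1.05, adjusted p = 0.00302) fell. Inpp5d, named here after its values were seen because its product binds the ITIM of Fcgr2b, fell with rIL-4 in macrophages (-0.69, SE 0.14, adjusted p = 0.011) and was not DE with rIL-13 (-0.31, adjusted p = 0.284) or in microglia (-0.70 and -0.52, adjusted p = 0.28 and 0.826). Between the cell types under PBS, 19 of 32 were lower in microglia and 1 was higher (median -0.71). Among the lower genes were Fgr (-2.81, adjusted p = 2.86e-05) and Syk, the kinase that binds the ITAM (-1.16, adjusted p = 0.000155). Of all genes, 40.9% were called there. After rIL-13 and after rIL-4, 8 of 32 were lower and 0 higher, close to the 26.7% and 23.4% of all genes called.

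Fcer1g also serves receptors that do not bind IgG. Of 10 genes for such receptors and related adaptors, 9 were tested in microglia and 8 in macrophages. Tarm1, a myeloid activating receptor that pairs with this chain, rose in all 4 comparisons with PBS: the log2 fold change was 4.13 (rIL-4) and 3.73 (rIL-13) in microglia and 2.41 and 2.37 in macrophages, with adjusted p of 0.000346 to 0.0114. It was the 1 gene of the 9 called in microglia, where 2.22% (rIL-4) and 0.366% (rIL-13) of all genes were called and the list medians were -0.23 and -0.44. In macrophages 4 others fell with rIL-4, among them the fungal glycan receptor genes Clec4n (-3.43, adjusted p = 9.82e-05) and Clec4d (-3.01, adjusted p = 0.00147), and Clec4n fell with rIL-13 (-2.47, adjusted p = 0.00142). The list medians were -1.08 and -0.61, and 14% and 4.19% of all genes were called. The fall of Clec4n with rIL-4 differed between the cell types (interaction 2.57, SE 0.42, adjusted p = 0.00883). Under PBS 6 of the 8 tested were lower in microglia and 1 was higher (median -3.15, against 0.04 over all genes, of which 40.9% were called).

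Other Fc receptor and Fc receptor-like genes were mostly too low to test, with 6 of 13 passing the filter. In microglia 0 of 6 passed the test with either cytokine (list medians -0.77 and -0.66), beside 2.22% and 0.366% of all genes, so that few or no calls among 6 genes is also the background. In macrophages 2 rose and 3 fell with rIL-4, and 2 fell with rIL-13, where 14% and 4.19% of all genes were called. Fcrls, a microglial marker of this family, fell by 3.76 on the log2 scale with rIL-4 and by 1.72 with rIL-13 (adjusted p = 0.00014 and 0.0149), and it was also DE between the cytokines (-2.04, adjusted p = 0.0415). Fcrl1 was lower after rIL-4 (-4.20, adjusted p = 0.00053) and rIL-13 (-3.53, adjusted p = 0.00331). B2m, which encodes the light chain that pairs with the Fcgrt product and is named for that reason after its values were seen, fell in macrophages with rIL-4 (-0.79, SE 0.22, adjusted p = 0.0393). Its value with rIL-13 was -0.78 (adjusted p = 0.0846), and it was not DE in microglia (-0.27 and -0.33, adjusted p = 0.685 and 0.94).

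Interferon gamma response genes were counted because Fcgr1 belongs to that response. Of 16 genes, 1 rose and 0 fell in microglia with each cytokine (medians -0.14 for rIL-4 and 0.05 for rIL-13), where 2.22% and 0.366% of all genes were called. That gene was Socs1, a feedback inhibitor of cytokine signalling that IL-4 also induces (3.90 with rIL-4 and 2.70 with rIL-13, adjusted p = 0.00138 and 0.0148). In macrophages, where 15 were tested, 2 rose and 4 fell with rIL-4 (median -0.59, against 0.02 over all genes), and 1 rose and 2 fell with rIL-13 (median -0.51, against 0.005), where 14% and 4.19% of all genes were called. The genes that rose with rIL-4 were Socs1 (3.55, adjusted p = 0.00102) and Cd274 (0.96, adjusted p = 0.00559). Socs1 also rose with rIL-13 (2.62, adjusted p = 0.0104). The chemokine gene Cxcl10 fell with both (-3.30 and -3.15, adjusted p = 0.00154 and 0.00551), as did the guanylate-binding protein gene Gbp3 (-1.67 and -1.45, adjusted p = 0.00579 and 0.0287).

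Fcgr2b, Fcgr3, Fcgr4 and Fcer1g lie on chromosome 1, Fcgr1 on chromosome 3 and Fcgrt on chromosome 7. Of the chromosome 1 genes, Fcgr2b (chr1:170958617-170976547, minus strand), Fcgr4 (chr1:171018920-171029761, plus strand) and Fcgr3 (chr1:171051174-171064935, minus strand) adjoin without another protein-coding gene between them, and Fcer1g lies at chr1:171229572-171234365, minus strand. Fcgr1 is at chr3:96282909-96293969 and Fcgrt at chr7:45092990-45103851, both on the minus strand. The neighbours of the chromosome 1 block are Fcrla and Cfap126. In macrophages Fcrla was higher after rIL-4 (log2 fold change 2.32, adjusted p = 0.00321) at a mean of 2.38 CPM, and Cfap126 was not DE (0.12, adjusted p = 0.898).

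Rcn3, a gene of the secretory pathway 768 bases from Fcgrt, was higher in macrophages after rIL-4 (3.37, SE 0.78, adjusted p = 0.0176) and rIL-13 (3.65, SE 0.79, adjusted p = 0.0309), as Fcgrt was. In microglia it was not (-1.11 and 0.18, adjusted p = 0.206 and 1). Its means were 0.834, 10.5 and 8.71 CPM in macrophages after PBS, rIL-13 and rIL-4, and 61.6, 69.7 and 28.1 CPM in microglia. The libraries do not keep strand. The antisense genes that overlap members had at most 0.0566 CPM (Gm38204, over Fcgr2b) and 0.140 CPM (Gm45669, over Fcgrt).

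The genes most like each member were found by the Pearson correlation of log2 CPM over the 18 libraries after the mean of each cell type was subtracted. The libraries share mice and treatments, so these values are descriptions. Most like Fcgr2b were Tarm1 (0.98), Ap2m1 (0.98) and Gatm (0.98), and Ccl8 (0.94) and Matk (0.93) were among those most like Fcgrt. For Fcgr1 they were Tsc22d4 (0.91), Cd14 (0.90) and Alox5ap (0.90), and for Fcgr4 they were Pnp (0.91), Alox5ap (0.87) and Kcnk13 (0.84). For Fcgr3 they were Enthd1 (0.92), Fermt3 (0.90) and Manbal (0.90), and for Fcer1g Bin1 (0.91), Higd2a (0.91) and Lst1 (0.91). Within the family Fcgr2b was closest to Fcgrt (0.90) and then to Fcgr3 (0.79, with shared reads), and Fcgr1 was closest to Fcer1g (0.77) and Fcgr4 (0.76). Fcgr1 and Fcgr2b had a correlation of -0.73.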

How the data were processed

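RNA of the sorted cells was made into SMARTseq2 libraries, which keep neither strand nor molecular identifiers, and sequenced in pairs of 76-base reads. According to the study's methods and the submitters' processing notes, reads were aligned by the authors with STAR 2.5.3a on GRCm38, and they deposited the expected counts per gene of RSEM 1.3.0, here already whole numbers, for 53465 genes. The release of the annotation is not given in the sources used here; 50690 of the gene identifiers had the same version in GENCODE M21, which gave positions and lengths. RSEM shares ambiguous reads between genes by estimate, which touches Fcgr2b and Fcgr3. Amplified reads are not independent molecules, and p-values measure the spread between mice.

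Counts were tested with the quasi-likelihood test of edgeR 4.0.16 (R 4.3.3), with TMM scaling, filterByExpr and Benjamini-Hochberg adjustment over all genes tested, called at an adjusted p of 0.05. Comparisons within a cell type used its 9 libraries, those of cell types the 6 libraries of a treatment, and interactions all 18. The scripts were tested on simulated data. Alternatives were DESeq2 1.42.0, its size factors in edgeR, other filters, other sets of libraries, the mouse as a block, leaving out each mouse, the gene length and, chosen after seeing the data, Fcgr2b and Fcgr3 as 1 gene. Each mouse gave both cell types, so the mouse number pairs the libraries; deviations of paired libraries from their group means correlated by 0.0485 to 0.205. The methods state count models within each cell type only, so the fit between cell types has no block. Coding sequences were aligned with Biopython (match 2, mismatch -1, gap opening -5, gap extension -0.5). Upstream sequences are from RefSeq (GRCm38.p6), and protein sequences were not used here.

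All 6 members were named in every comparison, with their nearest protein-coding neighbours, at most 4 genes per list with the lowest adjusted p, and the 3 genes most like each member; exceptions are marked, and a few genes that these rules name are not reported here. The members and lists were chosen with earlier results of these data known.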

Additional observations from a re-analysis of the deposited data

How the results depend on the processing

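The number of members called stayed within 1.5 times of the reported one in all 64 fits that changed the test, scaling, filter or set of libraries, and in 49 of 57 that left out 1 mouse. Without 1 mouse in turn the number ran from 1 to 3 for rIL-4 against PBS in microglia. For rIL-13 there it ran from 1 to 2. Between the cell types it ran from 0 to 5 after rIL-13 and from 2 to 4 after rIL-4. Calls over all genes fell as well. In microglia 75 of 16336 were called for rIL-4 without PBS mouse 3, against 345 of 15566. For rIL-13, 22 to 25 were called without 1 PBS mouse, against 57. Between the cell types 1197 were called after rIL-13 without mouse 7, against 3710. After rIL-4, 2548 were called without mouse 9, against 3174. Fewer mice were fitted there, and the libraries concerned are named beside each result. Of the 342 log2 fold changes without 1 mouse, 26 lost their call and 27 changed sign. Of the 406 under the other settings, 5 lost a call, 10 gained one and 4 changed sign.

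The changes of sign were in uncalled values. Without 1 mouse in turn, rIL-4 over rIL-13 in microglia ran from -0.33 to 0.10 for Fcgr1, -0.085 to 0.31 for Fcgr3, -0.33 to 0.025 for Fcgr4, -0.016 to 0.36 for Fcer1g and -0.19 to 0.0094 for Fcgrt. In macrophages the same contrast ran from -0.47 to 0.0025 for Fcgr3, -0.22 to 0.21 for Fcgr2b and -0.46 to 0.11 for Fcgrt. Fcgr4 after rIL-13 in macrophages ran from -0.070 to 0.35. Fcgr3 between the cell types ran from -0.18 to 0.044 after PBS and -0.23 to 0.16 after rIL-4, and was 0.0087 after PBS with at least 10 counts in every library. The interaction with rIL-4 ran from -0.14 to 0.34 for Fcgr1, -0.25 to 0.13 for Fcgr3 and -0.046 to 0.35 for Fcer1g, and that with rIL-13 from -0.64 to 0.016 for Fcgr3 and -0.36 to 0.11 for Fcer1g. With Fcgr2b and Fcgr3 as 1 gene, the value that stands for Fcgr2b was -0.061 for rIL-4 over rIL-13 in macrophages, and -0.095 and -0.24 for the interactions with rIL-4 and rIL-13. For these, the cause was not tested beyond the change itself.

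With the mouse as a replicate block, the same members were called between the cell types as without it, after PBS, rIL-13 and rIL-4. No member was called in the interactions. The share of all genes called with the block is not reported here. Levels and ratios moved by more than 1 SD in 28 of 84 cases, 27 of them with the longest transcript as length. The libraries held 35961305 counts or more, and the lowest level of a member in any library was 19.8 CPM; how depth limits the values was not tested.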
